A study of Rattus norvegicus with 31 samples.

Results

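The heat shock proteins and the J-domain cochaperones that serve them were followed in gastrocnemius, a mostly fast calf muscle, of control and Ucp1 knockout rats kept at room temperature or in the cold. Genes were taken by symbol: the Hspa, Hspb, Hspd, Hspe and Hsph series, Hsp90a genes, and Dnaja, Dnajb and Dnajc genes, without the endoplasmic reticulum (ER) chaperones Hspa5 and Hsp90b1. The rule matched 54 of the 11289 genes measured, and 53 of them were among the 10082 genes with enough counts to be tested. The exception was Dnajc16, with 100 counts in all 31 libraries and a median of 3. The animals were female Sprague Dawley rats, 7 months old and fed chow 5001, in 4 groups: control at room temperature (n = 8), Ucp1 knockout at room temperature (n = 7), control at 4 °C (n = 8) and Ucp1 knockout at 4 °C (n = 8), with the period at either temperature lasting 14 days. Ucp1 encodes the carrier that lets brown fat mitochondria release energy as heat. The labels say nothing more of the knockout allele, and since Ucp1 is not analysed here the genotypes are those of the labels.

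Chaperones bind unfolded or partly folded proteins and keep them from aggregating. HSP70 proteins (Hspa genes) bind and release clients in a cycle driven by ATP; J-domain proteins (Dnaj genes) bring the client and start ATP hydrolysis, and HSP110 proteins (Hsph1, Hspa4) exchange the nucleotide. HSP90 matures kinases and steroid receptors, HSP60 and HSP10 (Hspd1, Hspe1) form the folding chamber of mitochondria, and small heat shock proteins (Hspb genes) hold clients without ATP and are abundant on the sarcomere and cytoskeleton of muscle. Under heat or proteotoxic stress the transcription factor HSF1 induces the cytosolic members by binding heat shock elements (HSE), inverted repeats of the unit GAA.

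The promoters show which members carry an HSE near the start. RefSeq promoter windows of assembly GRCr8, 250 bases before to 50 after the start that the promoter set uses, were matched for 43 of the 54 genes. That start is not always the outer end of the gene. An HSE of 3 units (GAANNTTCNNGAA or TTCNNGAANNTTC, the same search on both strands) was present in 5 of 43 windows (11.6%), against 267 of 33469 windows of all genes (0.798%). The 5 genes were Hspa8, Dnaja1, Hsph1, Hspd1 and Hspe1. An HSE of 2 units (GAANNTTC or TTCNNGAA), which is contained in every 3-unit match, was present in 14 of 43 (32.6%) against 15.9% of all windows. The element of ER stress genes, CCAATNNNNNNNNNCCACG, was found in 1 of the 43 windows (2.33%), that of Dnajc3, and in 0.0657% of all windows. Matches are letters found in these windows and not shown binding sites. The stretches that hold the 3-unit matches are printed first, 5′ to 3′ on the strand of the gene, with the match in capitals.
Hspa8 (chr8:50080271-50080501, plus strand): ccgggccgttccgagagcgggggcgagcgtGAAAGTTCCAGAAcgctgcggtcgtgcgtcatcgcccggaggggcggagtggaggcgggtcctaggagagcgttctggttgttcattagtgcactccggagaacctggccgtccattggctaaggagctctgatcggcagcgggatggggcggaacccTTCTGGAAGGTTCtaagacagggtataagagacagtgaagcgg
Hsph1 (chr12:10427302-10427374, plus strand): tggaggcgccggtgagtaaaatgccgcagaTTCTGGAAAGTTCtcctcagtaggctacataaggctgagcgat
Hspe1 (chr9:64084232-64084309, plus strand): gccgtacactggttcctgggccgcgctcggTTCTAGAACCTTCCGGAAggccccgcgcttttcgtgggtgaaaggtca
Dnaja1 (chr5:60638405-60638433, plus strand): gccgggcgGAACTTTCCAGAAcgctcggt
The Hspa8 window had 2 separate matches, which begin 213 and 55 bases before the start. The Hsph1 match begins 36 bases before the start, and the Dnaja1 match begins at base 10 of the gene. In Hspe1 the capitals are 2 overlapping matches, which begin 65 and 60 bases before the start. The window of Hspd1, the neighbouring gene on the other strand, holds the same bases (chr9:64084262-64084279). They precede the start used by the Hspd1 window but lie inside the RefSeq span of the Hspd1 gene (chr9:64073610-64084332).

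The 2 genes that passed the test in the cold, described further on, had only 2-unit matches. Their stretches are shown for comparison, with the 2-unit match in capitals.
Dnajb6 (chr4:6232129-6232196, minus strand): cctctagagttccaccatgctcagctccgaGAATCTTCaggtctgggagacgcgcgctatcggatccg
Hspb6 (chr1:94934122-94934260, plus strand): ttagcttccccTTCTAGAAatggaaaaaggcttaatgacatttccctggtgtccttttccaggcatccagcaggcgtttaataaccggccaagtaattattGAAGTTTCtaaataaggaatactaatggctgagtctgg
The Dnajb6 match begins 162 bases before the start used by its window. That start lies inside the RefSeq span of the gene (chr4:6010081-6232052), so the match is closer to the outer end of the gene. The first Hspb6 match begins 239 bases before the start of Hspb6.

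Libraries were made with a QuantSeq 3' kit, which reads tags from transcript ends. Levels are given as CPM, a gene's counts scaled to the library total after TMM normalization. They need no correction for length, but a 3' end missing from the annotation would lower them. Total counts ran from 6.56 to 11.9 M per library, with a mean of 9.30 ± 1.26 M (SD, n = 31). The first principal component held 35.2% of the variance of log2 levels and cut across the groups. It was signed so that Hspa8 levels rose with it, since the sign of a component is arbitrary. Its 7 lowest libraries were control animal 1 and knockout animals 9 and 12 at room temperature, and control animals 17 and 23 and knockout animals 25 and 28 in the cold. Room temperature control animals 1 and 2 stood apart in markers of other cell types. Their summed white adipocyte markers were 188 and 167 CPM against 387 to 700 in the rest of their group, their immune markers 82.6 and 61.4 CPM against 169 to 224, and their endothelial markers 340 and 312 CPM against 185 to 239. Muscle-defining genes (Acta1, Ckm, Des and others) summed to 81766 CPM or more in every library. Each animal gave 1 library, and nothing in the labels pairs animals across groups.

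Levels of the chaperone genes spanned from 0.474 CPM (Hspa9) to 7714 CPM (Hsp90ab1) over single animals. Since these are 3' tag counts, an order between genes is a description of tags. Among the HSP70 and HSP110 genes Hspa4, an HSP110 that exchanges nucleotide on HSP70, was highest. Its lowest, median and highest CPM were 68.2, 215 and 232 in room temperature controls, 129, 183 and 197 in room temperature knockouts, 118, 169 and 231 in cold controls and 117, 154 and 227 in cold knockouts. All 4 ranges overlap, and the fitted cold change averaged over genotypes was a log2 fold change of -0.05 ± 0.16 (SE). Hspa8, the constitutive cytosolic HSP70, ran from 3.59 CPM in a cold control to 55.4 CPM in a room temperature control. RefSeq names 33 pseudogenes of Hspa8, so reads of this gene may be shared with near-identical copies or lost to them. Hspa9, the HSP70 of the mitochondrial matrix, was listed at 0.474 to 4.64 CPM. Counting error is a larger share of so low a level.

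Hsp90ab1, the constitutive cytosolic HSP90, was the most abundant of the 53 genes. Its median was 3523 CPM in room temperature controls, 4108 in room temperature knockouts, 3517 in cold controls and 3833 in cold knockouts, and its range over animals was 2692 to 7714 CPM. The inducible Hsp90aa1 is not analysed here. The small heat shock proteins of striated muscle followed. Hspb8, a partner of the cochaperone BAG3 in the disposal of damaged filament proteins, had medians of 1053, 1262, 1293 and 1959 CPM in the same order of groups. Hspb7, a cardiac and skeletal muscle member, had medians of 1202, 1382, 1478 and 1825 CPM. Hspb6, known as HSP20, had 610, 621, 776 and 752 CPM, and Hspb1, known as HSP25 or HSP27, had 520, 685, 506 and 624 CPM. Hspb11 (medians 2.89 to 3.73 CPM) carries the series name but encodes a protein of intraflagellar transport. Among J-domain genes the most abundant was Dnajb6, followed within its own series by Dnajb2. Dnaja2 led the Dnaja genes with medians of 267 to 304 CPM, and Dnajc7, a J-domain protein with a domain that binds HSP70 and HSP90, had the highest mean of the Dnajc genes over all animals, with medians of 185 to 233 CPM; in room temperature knockouts the medians of Dnajc21 (254 CPM) and Dnajc2 (213 CPM) were above its own.

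**Figure D1:**
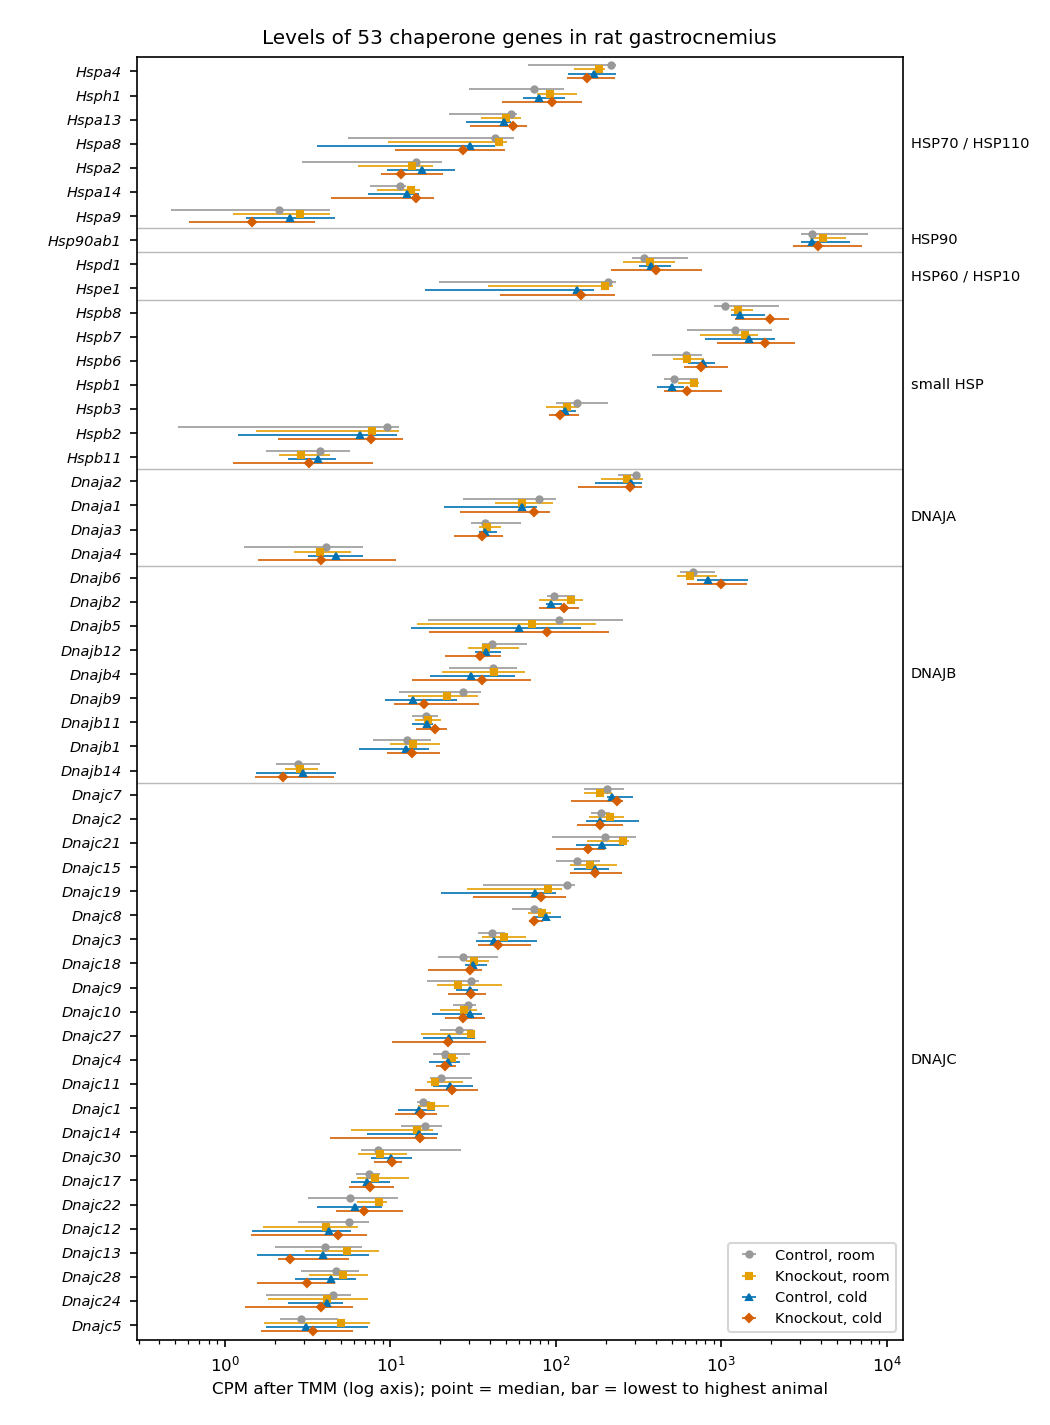
CPM after TMM scaling of the 53 tested genes on a log axis, by class; points are group medians and bars run from the lowest to the highest animal of the group (n = 8, 7, 8 and 8). Hsp90ab1 and Hspb8 lie at the high end, the bars of the groups overlap for most genes, and the bars of Hspa8, Hspe1, Hspb2 and Dnajb5 are the widest.

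The cold comparison asks whether 14 days at 4 °C, a temperature at which muscle can make heat by shivering, changed these genes. Averaged over genotypes, 2 of 53 rose and 0 fell in edgeR's quasi-likelihood test at an adjusted p under 0.05, where p-values were adjusted by Benjamini-Hochberg over all 10082 genes. That is 3.77% of the chaperone genes, against 3.67% of all genes called higher, 1.98% called lower and 5.65% called in either direction, so the share was near that of all genes. The directions depended on the fit. With the first component as a covariate 2 rose and 3 fell (Dnajb9, Dnajc13 and Dnajc28), 9.43% against 12.6% of all genes. Without room temperature controls 1 and 2, Dnajb6 and Hspb8 rose and Dnajc21 fell, 5.66% against 7.2% of all genes. Without the 7 animals lowest on the component Dnajb6 rose and Dnajc13 fell, 3.77% against 5.28% of all genes. An unadjusted p under 0.05 was found for 9 of 53 (17%) against 19.5% of all genes. The median log2 fold change was -0.07 over the 53 genes and -0.02 over all genes, with 18 of the 53 above and 35 below 0. For 39 of 53 genes (73.6%) the 95% interval of the change lay within 1.5-fold in either direction, as it did for 64.5% of all genes.

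Dnajb6, a J-domain protein of the Z-disc region that suppresses aggregation and is mutated in a limb girdle muscular dystrophy, was the gene with the smallest p. At room temperature its CPM in control animals 1 to 8 was 849.0, 921.4, 563.7, 743.1, 582.4, 584.4, 642.1 and 708.6, and in knockout animals 9 to 15 it was 754.3, 679.0, 597.7, 946.8, 538.3, 645.1 and 578.1. In the cold it was 821.8, 1450.1, 728.0, 709.7, 870.2, 834.4, 815.7 and 1101.7 in control animals 16 to 23 and 1140.3, 1376.8, 621.0, 911.9, 1426.2, 944.0, 1048.6 and 735.9 in knockout animals 24 to 31. Cold animals were mostly higher, and the cold and room temperature ranges overlap in both genotypes. The cold change was a log2 fold change of 0.49 ± 0.12 (SE; edgeR adjusted p = 0.0104). In controls it was 0.39 ± 0.17 (edgeR adjusted p = 0.273) and in knockouts 0.60 ± 0.17 (edgeR adjusted p = 0.0666). The change in knockouts passed with DESeq2 (adjusted p = 0.0343). It also passed without room temperature controls 1 and 2 (edgeR adjusted p = 0.0355) and with the first component as a covariate (edgeR adjusted p = 8.48e-04). Without the 7 animals lowest on that component the edgeR adjusted p was 0.0465. Apart from omissions of 1 animal, it did not pass in the other edgeR fits. The difference between the changes of the genotypes did not pass (0.21 ± 0.24, edgeR adjusted p = 0.916). The averaged call was kept under each omission of 1 animal, with changes of 0.44 to 0.55, and in the other fits run. Its level followed the first component within groups (r = -0.83), and with that component in the model the change was 0.42 (edgeR adjusted p = 1.95e-04). RefSeq names 10 pseudogenes of Dnajb6.

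Hspb6, the small heat shock protein HSP20, which is phosphorylated on cyclic nucleotide signals in muscle, was the other gene that rose. Its lowest, median and highest CPM were 380, 610 and 767 in room temperature controls and 509, 621 and 781 in room temperature knockouts, against 631, 776 and 917 in cold controls and 594, 752 and 1092 in cold knockouts. The cold groups sat higher at each of the 3 values, with overlap in both genotypes. The averaged cold change was 0.35 ± 0.10 (SE; edgeR adjusted p = 0.0441), close to the threshold, with 0.36 ± 0.14 in controls and 0.34 ± 0.15 in knockouts. The call was kept in 13 of 31 omissions of 1 animal: control animals 4, 7 and 8 and knockout animals 12 and 13 at room temperature, and control animals 17, 19, 20 and 22 and knockout animals 26, 27, 30 and 31 in the cold. It was lost in each of the other 18, where the change stayed at 0.31 or above. Without room temperature controls 1 and 2, which held the 2 lowest values of the gene (435.5 and 379.8 CPM), the change was 0.28 (edgeR adjusted p = 0.0676). Without the 7 animals lowest on the first component it was 0.19 (edgeR adjusted p = 0.314). In RefSeq the gene overlaps Lin37, and reads in the overlap could belong to either.

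Slow fibre genes moved with temperature beside Hspb6: 10 of 11 were higher in the cold averaged over genotypes, and their summed level was 9685 to 20983 CPM in room temperature controls, 10679 to 18044 in room temperature knockouts, 22170 to 29575 in cold controls and 16134 to 39008 in cold knockouts. Across the 31 animals, with group means removed, Hspb6 followed Myh7, the slow myosin heavy chain (Pearson r = 0.64, permutation p = 9.8e-04; Spearman rho = 0.52, permutation p = 0.00733). Without animals 1 and 2, the farthest from the median, r was 0.50. Within groups r was 0.90 in room temperature controls, 0.065 in room temperature knockouts, 0.26 in cold controls and 0.64 in cold knockouts. Other measures also differed with temperature: 3 of 4 erythrocyte marker rows and 3 of 9 immune markers were higher in the cold, 3 of 10 immediate early genes were lower, and mitochondrially encoded transcripts took a mean of 12.5% and 12.4% of counts at room temperature and 10.3% and 9.43% in the cold, in controls and knockouts. Of 9 fast fibre markers 1 was higher and 5 had an unadjusted edgeR p under 0.05, with a median log2 fold change of 0.22. Of 7 muscle-defining genes 2 were higher, of 8 white adipocyte markers 1 was higher, and of 8 endothelial markers 1 was lower. Over all genes 3.67% were called higher and 1.98% lower. The muscle-defining list shares Myh7 and Mb with the slow fibre list and Myh1, Myh2, Myh4 and Tnnt3 with the fast fibre list. The counts of these lists are therefore not separate. The part of fibre type and of these measures in the change of Hspb6 was not tested. In whole muscle, more fibres of a type and more RNA per fibre cannot be told apart.

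**Figure D2:**
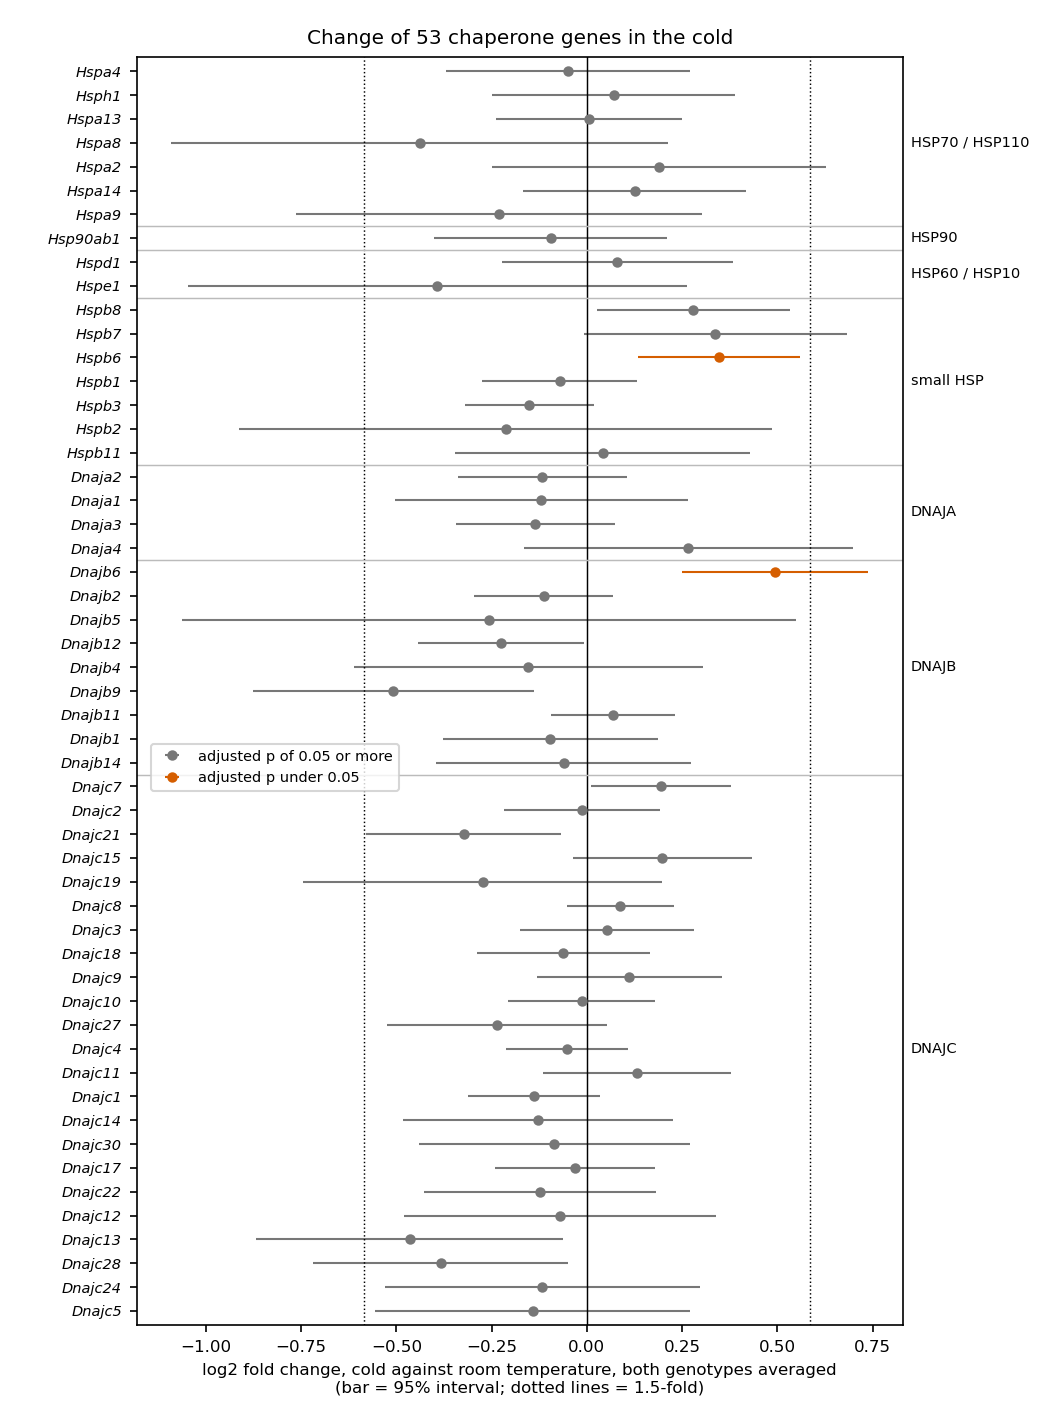
Log2 fold change of the 53 genes in the cold against room temperature, averaged over genotypes, with 95% intervals; dotted lines mark 1.5-fold in either direction. Dnajb6 (0.49) and Hspb6 (0.35) are the 2 coloured genes with an adjusted p under 0.05, and the intervals of Dnajb5, Hspb2, Hspe1 and Hspa8 are the widest.

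Other members had changes that did not pass. Dnajb9, an ER J-domain protein induced by unfolded proteins in that compartment, had medians of 27.5 CPM in room temperature controls, 21.9 in room temperature knockouts, 13.8 in cold controls and 15.8 in cold knockouts. Its averaged cold change was -0.51 ± 0.18 (SE; edgeR adjusted p = 0.0948), with -0.80 ± 0.25 in controls (edgeR adjusted p = 0.121). Room temperature control animal 4 stood at 11.3 CPM, far below the rest of its group, and without it the change in controls passed (edgeR adjusted p = 0.0489). Without animal 4 or without cold knockout animal 31 the averaged change passed as well. Hspb8 had a cold change of 0.28 ± 0.12 averaged over genotypes (edgeR adjusted p = 0.196), and without room temperature controls 1 and 2 it was 0.44 (edgeR adjusted p = 0.00696). By genotype the Hspb8 change was 0.05 ± 0.17 in controls (edgeR adjusted p = 0.909) and 0.51 ± 0.18 in knockouts (edgeR adjusted p = 0.151). The change in knockouts passed without room temperature controls 1 and 2 (edgeR adjusted p = 0.035). With the first component as a covariate it passed too (edgeR adjusted p = 0.0401). The interaction of genotype and cold passed for none of the 53 genes. Dnajc7 stood at 0.20 ± 0.09 (edgeR adjusted p = 0.219).

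Within control rats 0 of 53 genes passed, against 0.853% of all genes, and within knockout rats 0 of 53 against 1.38%. At an unadjusted p under 0.05 edgeR gave 5 of 53 in controls (9.43%, all genes 14.2%) and 8 of 53 in knockouts (15.1%, all genes 14.3%). DESeq2 at an adjusted p under 0.05 called 1 in controls (1.89%, all genes 2.03%) and 3 in knockouts (5.56%, all genes 2.91%). In controls Dnajc8, a J-domain protein bound to splicing factors, had medians of 73.4 CPM at room temperature and 87.1 CPM in the cold, a change of 0.31 ± 0.10 (edgeR adjusted p = 0.114; DESeq2 adjusted p = 0.0448). In knockouts its medians were 83.0 and 73.7 CPM, a change of -0.13 ± 0.10.

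In knockout rats the smallest p-values among genes with lower levels in the cold were those of 3 Dnajc genes. Dnajc21, a factor of ribosome assembly, ran from 154 to 275 CPM at room temperature (median 254) and from 99.6 to 198 CPM in the cold (median 157), a change of -0.64 ± 0.18 (SE; edgeR adjusted p = 0.0615; DESeq2 adjusted p = 0.0302). Dnajc13, a J-domain protein of endosomes, had medians of 5.47 and 2.46 CPM, a change of -0.95 ± 0.28 (edgeR adjusted p = 0.0778; DESeq2 adjusted p = 0.037). Dnajc28, which overlaps Son in RefSeq, had medians of 5.17 and 3.12 CPM and a change of -0.71 ± 0.24 (edgeR adjusted p = 0.124). The same genes stood near 0 in controls: -0.01 ± 0.18, 0.02 ± 0.28 and -0.06 ± 0.23. The difference between genotypes was -0.63 ± 0.25 for Dnajc21 and -0.96 ± 0.40 for Dnajc13, with edgeR adjusted p of 0.603 and 0.608. Omitting single animals brought a call in knockouts for Dnajc21 (without room temperature animals 1, 2 or 15, or cold animal 29), for Dnajc13 (without animals 15 or 28) and for Dnajb6 (without animals 2, 12, 17 or 26).

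None of the 5 genes with a 3-unit HSE passed in any of the 7 contrasts. Over all genes the share called in a contrast ran from 0% to 5.65%, so 0 of 5 is near that share. Hsph1, the inducible HSP110, had medians of 73.5 CPM in room temperature controls, 91.8 in room temperature knockouts, 78.9 in cold controls and 94.6 in cold knockouts. Its averaged cold change was 0.07 ± 0.16, with a 95% interval of -0.25 to 0.39. Hspd1, the HSP60 of mitochondria, had medians of 341, 370, 377 and 402 CPM and a cold change of 0.08 ± 0.15. Dnaja1, which assists HSP70 in the cytosol, had medians of 78.6, 62.5, 62.3 and 73.8 CPM and a cold change of -0.12 ± 0.19. For Hspa8 (-0.44 ± 0.32, interval -1.09 to 0.21) and Hspe1 (-0.39 ± 0.32, interval -1.05 to 0.26) the intervals are wide and hold both 0 and falls of more than 1.5-fold. Dnajb1, the main inducible J-domain partner of HSP70, stayed low at medians of 12.5 to 13.7 CPM with a cold change of -0.10 ± 0.14.

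**Figure D3:**
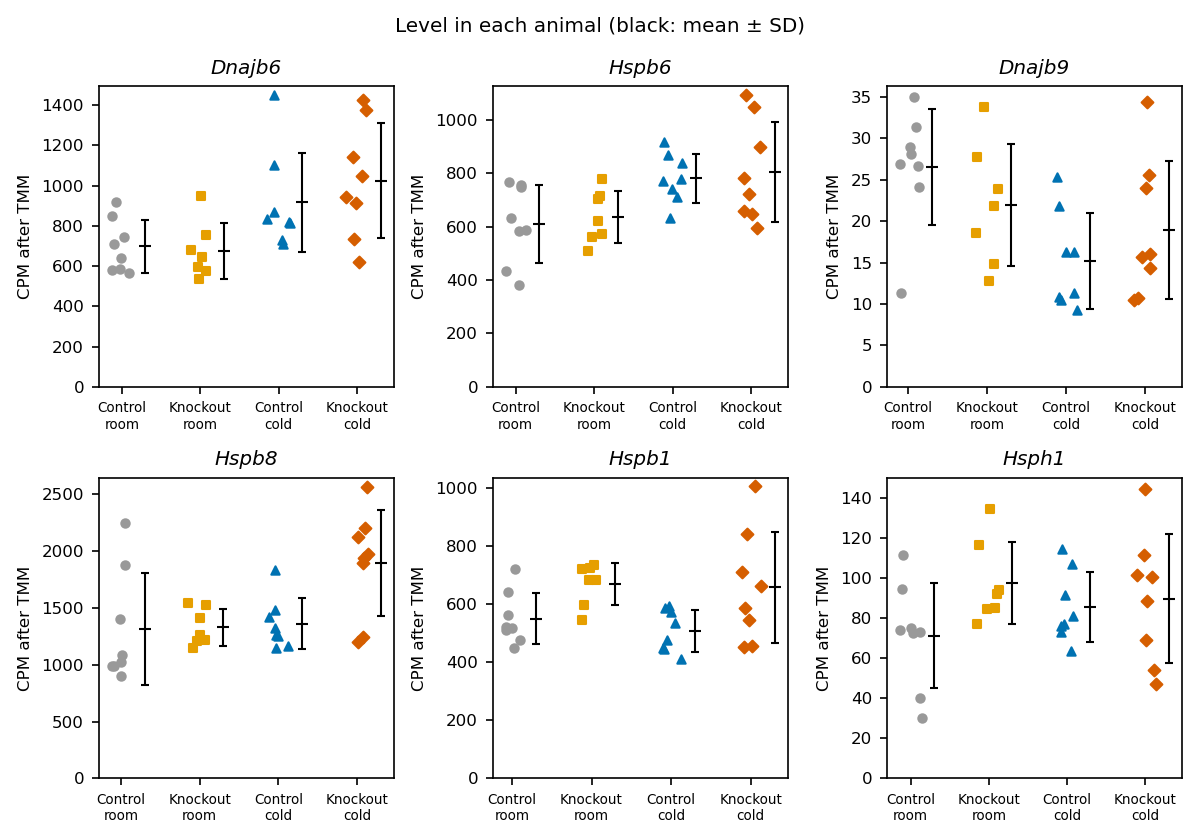
CPM after TMM of 6 genes in each of the 31 animals by group, with the mean ± SD of the group in black. Cold animals lie higher for Dnajb6 and Hspb6, cold controls lie lower for Dnajb9, cold knockouts have the highest mean for Hspb8, and groups overlap in every panel.

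The genotype comparison asks whether loss of Ucp1 changed the chaperones. No chaperone gene passed in any of these contrasts with edgeR or DESeq2. At room temperature 0 of 53 passed, as did 0% of all genes, and 2 of 53 had an unadjusted p under 0.05 (all genes 7.06%). In the cold 0 of 53 passed against 0.00992% of all genes, with 4 of 53 unadjusted (all genes 6.28%). Averaged over temperatures 0 of 53 and 0% of all genes passed, with 3 of 53 unadjusted (all genes 6.4%). For the averaged contrast 44 of 53 intervals (83%) lay within 1.5-fold, against 75% for all genes. The smallest p belonged to Hspb1, which protects actin and other filaments. Its lowest, median and highest CPM were 450, 520 and 720 in controls and 545, 685 and 736 in knockouts at room temperature, and 410, 506 and 593 in controls and 453, 624 and 1006 in knockouts in the cold. Knockouts had the higher median at both temperatures and the ranges overlap; the averaged difference was 0.33 ± 0.10 (SE; edgeR adjusted p = 0.489). Dnajb2, which is enriched in neurons and also made in muscle, differed by 0.19 ± 0.09 and Dnajc22 by 0.34 ± 0.15, with edgeR adjusted p of 0.767 and 0.744. In the cold Hspb8 was higher in knockouts by 0.48 ± 0.17, from a range of 1147 to 1834 CPM in controls to 1203 to 2562 CPM in knockouts (edgeR adjusted p = 0.682). At room temperature Hspb3, a small heat shock protein of muscle, differed by -0.30 ± 0.12 (edgeR adjusted p = 0.698), with animal 2 the highest control at 205.4 CPM.

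The interaction, the cold change in knockouts minus that in controls, passed for 0 of 53 genes and for 0% of all genes. An unadjusted p under 0.05 was found for 4 of 53 (7.55%), all of them lower, against 7.31% of all genes in either direction and 4.58% lower. They were Dnajc8 (-0.44 ± 0.14, edgeR adjusted p = 0.459), Dnajc21, Dnajc13 and Hspa9 (-1.15 ± 0.52, edgeR adjusted p = 0.649). Hspa9 had medians of 2.12 CPM in room temperature controls, 2.84 in room temperature knockouts, 2.48 in cold controls and 1.45 in cold knockouts, so its values rest on few counts. DESeq2 called none of the 53 for the interaction.

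Members were also read by the compartment in which they act and by the HSF1 response. Of 7 tested ER J-domain genes 0 passed edgeR's test in the averaged cold contrast and 2 had an unadjusted p under 0.05, with a median log2 fold change of -0.06. Of 9 mitochondrial members 0 passed and 1 had an unadjusted p under 0.05, with a median of -0.13. Of 9 tested core genes of the HSF1 response, which act in the cytosol except for Hspd1 and Hspe1, which are also in the mitochondrial list, 0 passed and 0 had an unadjusted p under 0.05, with a median of -0.10. Over all genes the shares were 5.65% and 19.5%. DESeq2 called 0 in each of these lists. With the first component as a covariate 1 ER member (Dnajb9) and 1 mitochondrial member (Dnajc28) were called lower. That fit called 12.6% of all genes in either direction. Dnajc15, a J-domain protein of the mitochondrial import motor, had the highest change among mitochondrial members at 0.20 ± 0.12. Dnajc19, its paralog at the same motor, stood at -0.27 ± 0.23; it overlaps Fxr1 in RefSeq.

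Chaperone genes outside the symbol rule, from lists chosen for function, gave 4 calls in the averaged cold contrast. The share called was 12.5% of other heat shock genes, 7.14% of cochaperones, 9.09% of ER chaperones and 0% in the 3 other lists. Over all genes it was 5.65%. The lists held 5 to 28 tested genes, so these shares rest on at most 2 calls each. Of 8 other heat shock genes 0 rose and 1 fell: Hspa1l, an HSP70 best known from testis, had medians of 29.8 and 29.6 CPM at room temperature and 21.3 and 21.3 CPM in the cold in controls and knockouts, a change of -0.57 ± 0.17 (SE; edgeR adjusted p = 0.037). Without room temperature controls 1 and 2 its adjusted p was 0.0995. Hspa1b, the inducible HSP70 next to it in the genome, ranged from 3.46 to 62.3 CPM over animals, with group means of 18.6, 23.6, 14.7 and 26.6 CPM and a change of -0.08 ± 0.32. These HSP70 genes are near-identical in sequence in part, so their reads may be shared. Cryab, the abundant small heat shock protein alphaB-crystallin, had a mean of 2175 CPM and a change of -0.10 ± 0.10.

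Of 28 cochaperones of HSP70 and HSP90, 2 rose and 0 fell with edgeR (7.14%, all genes 5.65%). With DESeq2 2 rose and 2 fell (all genes 7.04%), and with the first component as a covariate 3 rose and 4 fell (all genes 12.6%). Fkbp5, an HSP90 cochaperone induced by glucocorticoids, had medians of 19.6 and 28.4 CPM at room temperature and 41.6 and 47.6 CPM in the cold in controls and knockouts, a change of 0.72 ± 0.16 (SE; edgeR adjusted p = 0.00669). Itgb1bp2, known as melusin, a muscle protein with a chaperone-binding domain, had 67.1 and 58.1 CPM at room temperature and 79.7 and 84.0 CPM in the cold, a change of 0.45 ± 0.11 (edgeR adjusted p = 0.0141), with an adjusted p of 0.0612 without the 7 animals lowest on the first component. Next by p were Ptges3, the HSP90 cochaperone p23 (-0.29 ± 0.09, edgeR adjusted p = 0.0533), and Ppid, an HSP90-bound cyclophilin (-0.82 ± 0.26, edgeR adjusted p = 0.0562). Of 11 ER chaperones 1 rose, Sdf2l1, a partner of ER J-domain proteins (0.70 ± 0.13, edgeR adjusted p = 0.00117), from means of 5.50 and 6.82 CPM at room temperature to 8.69 and 11.4 CPM in the cold. With edgeR and with DESeq2, 0 of 5 HSF genes and regulators, 0 of 15 subunits of the TRiC chaperonin and prefoldin, and 0 of 10 mitochondrial chaperones and proteases passed. Of them 1, 2 and 2 had an unadjusted edgeR p under 0.05 (20%, 13.3% and 20%, all genes 19.5%). With the first component as a covariate 2 of the TRiC and prefoldin genes were lower and 1 of the mitochondrial genes was higher (all genes 12.6%). Hsf2 stood at 0.22 ± 0.12, Cct6a at -0.21 ± 0.09, and Grpel1, the nucleotide exchange factor of mitochondrial HSP70, at 0.30 ± 0.11 (edgeR adjusted p = 0.0886).

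Several chaperones varied widely between animals of the same group. The ratio of the highest to the lowest animal within 1 group was up to 21.4 for Hspb2 (room temperature controls), 14.97 for Dnajb5 (room temperature controls), 11.9 for Hspa8 (cold controls) and 11.8 for Hspe1 (room temperature controls). In the least variable group of each it was 5.67, 10.7, 4.65 and 4.93. Group membership held a median of 8.82% of the variance of the 53 genes, against 11.1% over all genes, with a maximum of 39.1% for Dnajc8. Fitted group means take up part of the variance even where groups do not differ. The share to be had without any group effect was not computed, so these medians do not show an effect of group. The first component was computed from the genes outside this family. With group means removed, 14 of 53 genes (26.4%) had an absolute r of 0.8 or more with it, 11 positive and 3 negative, against 17.2% of all genes; the share is a description, since genes of 1 library share its preparation.

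Since the component was signed by Hspa8, the sign of Hspa8 was set in advance, and positive means the same direction as Hspa8. The positive genes came from several chaperone machines. They were Dnajc19, Dnajc12, Hspa8, Dnajb4, Dnajb5, Dnajc14, Dnaja1, Dnajc24, Hspe1, Hspb2 and Dnaja2. Hspa8 had r = 0.90 and rho = 0.69 over 31 animals. The permutation p adjusted over the 53 genes was 3.12e-05 for r and 4.12e-04 for rho. Before adjustment the permutation p of r was 1e-05, the smallest the permutations could give. For Hspa8 r was 0.89 without the 2 farthest animals and 0.69 without the 7 lowest. Within the 4 groups r was 0.93, 0.96, 0.94 and 0.84. Hspe1, the HSP10 lid of the mitochondrial chamber, had r = 0.86, but 0.49 without the 7 lowest animals. Dnaja2 fell from 0.83 to 0.32 without the same 7. These 7 were picked on the component itself, so leaving them out narrows its range and can lower r for any gene. Dnajb5, a J-domain protein tied to histone deacetylase 4 in muscle, kept r = 0.79 without the 7, and Dnajb4 0.77. In room temperature controls r for Dnajb5 was 0.54, with animal 2 at 253 CPM above the line of the others. The 3 negative genes were Dnajb6 (r = -0.83), Hsp90ab1 (-0.83) and Dnajc11 (-0.83), the last a protein of the mitochondrial inner membrane scaffold; without the 7 lowest animals they stood at -0.53, -0.62 and -0.57.

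**Figure D4:**
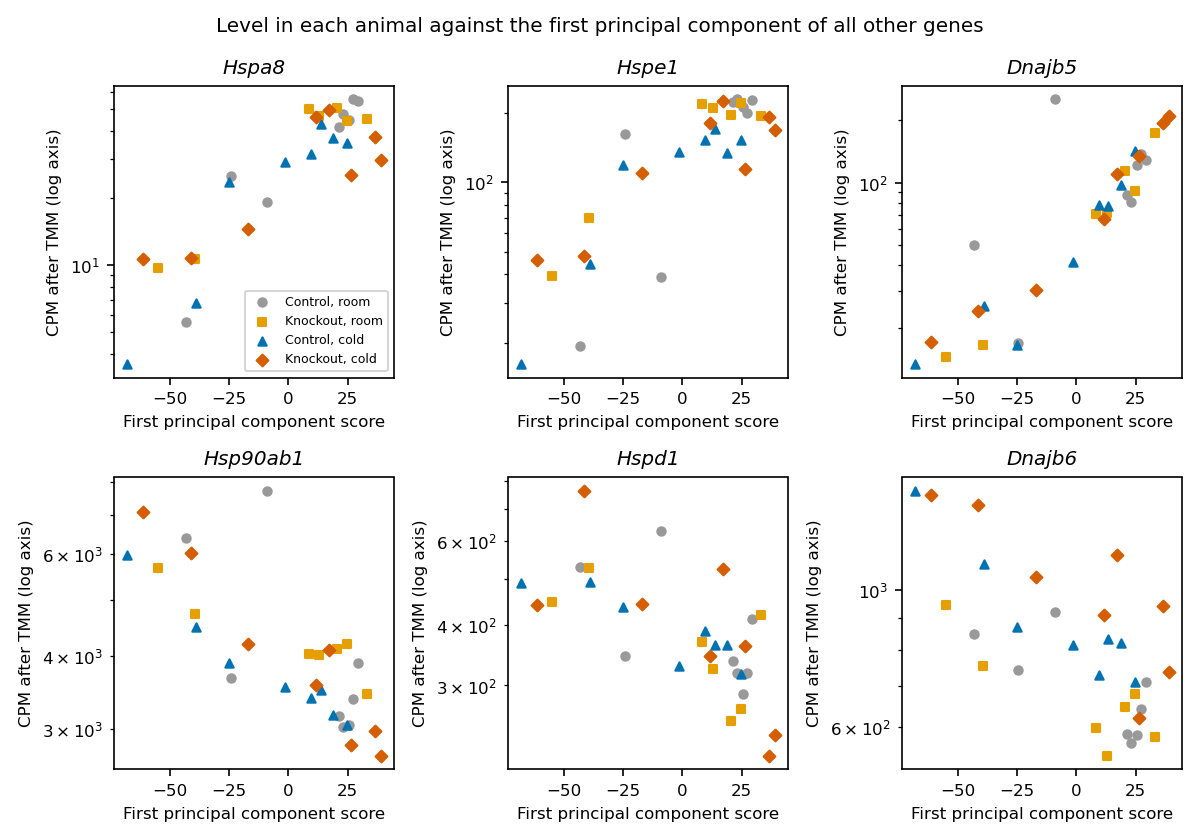
CPM after TMM on a log axis in each of the 31 animals against the score on the first principal component of the other genes, for 6 chaperone genes, coloured by group. Hspa8, Hspe1 and Dnajb5 are low in the animals with low scores, Hsp90ab1, Hspd1 and Dnajb6 are high there, and each group has animals at both ends.

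Several library measures moved with the same component. With group means removed, r was 0.70 for the share of ribosomal protein counts, -0.79 for the summed fast fibre markers, -0.70 for the endothelial markers, 0.62 for the immediate early genes, -0.60 for the erythrocyte markers, -0.53 for the share of the 20 highest genes, -0.50 for the muscle-defining markers and -0.46 for the slow fibre markers (permutation p of 2e-05, 1e-05, 4e-05, 3.9e-04, 0.00135, 0.00551, 0.00787 and 0.0133). Total counts gave r = -0.32 (permutation p = 0.111) and mitochondrially encoded counts r = 0.26 (permutation p = 0.194). Adjusted over the 12 measures these p-values were 1.2e-04, 1.2e-04, 1.6e-04, 0.00117, 0.00324, 0.011, 0.0135, 0.0199, 0.147 and 0.232. White adipocyte (r = -0.13) and immune markers (r = 0.085) did not pass, with adjusted permutation p of 0.542 and 0.641. The part of these measures in the levels of chaperones was not tested.

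Hspd1 and Hspe1, which make the ring and the lid of 1 folding machine and whose windows share the bases printed with Hspe1, went in opposite directions between animals. With group means removed r was -0.66 (permutation p = 4e-05) and rho -0.59 (permutation p = 8.4e-04) over 31 animals. Without the 2 farthest animals, cold knockout 25 and room temperature control 2, r was -0.60, and without the 7 animals lowest on the first component it was -0.52. Within the 4 groups it was -0.86, -0.68, -0.79 and -0.59. Hspd1 had r = -0.69 with the first component where Hspe1 had 0.86. RefSeq names 20 pseudogenes of Hspd1 and 1 of Hspe1, and the genes overlap at their starts; the part of shared reads in this relation was not tested.

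Relations of the other members with Hsph1 between animals were also computed. With group means removed, 6 of 52 other genes had a permutation p of r under 0.05 after Benjamini-Hochberg adjustment over the 52: 5 positive and 1 negative. The share of all genes related to Hsph1 was not computed. The count is therefore a description and cannot be called high or low for chaperones. Hspb6 (r = 0.72, rho = 0.66, adjusted permutation p = 0.0052 and 0.0192) and Dnajc27 (r = 0.62, rho = 0.58, adjusted permutation p = 0.0052 and 0.032) were the nearest, followed by Dnajc18 (r = 0.63), Hspa2 (r = 0.60) and Dnajc1 (r = 0.46). The negative gene was Dnajb12 (r = -0.55). The farthest animals from the median of Hsph1 were room temperature controls 1 and 2, and without them 2 of 52 had an adjusted permutation p under 0.05. Without them r was 0.75 for Dnajc27, 0.55 for Dnajc1, 0.54 for Hspb6 and 0.51 for Dnajc18, while it was 0.27 for Hspa2 and -0.35 for Dnajb12. Of the 6, r of Hspa2 and Dnajb12 fell in size the most without those 2 animals. The 2 were picked on Hsph1 itself, so leaving them out narrows its range and can lower r. Of the other genes with a 3-unit HSE, r with Hsph1 was 0.48 for Hspe1, 0.41 for Hspa8, 0.41 for Dnaja1 and 0.055 for Hspd1. In the same order the adjusted permutation p was 0.06, 0.089, 0.12 and 0.91. Without the 2 animals r was 0.20, 0.24, 0.16 and 0.49.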

How the data were processed

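The authors deposited raw counts per gene, 1 column per animal; a second deposited table holds signal, the authors' counts divided by size factors of DESeq2 1.22.2, per the submitters' processing notes, which also name the build Rnor 6.0. Not given in the sources used here: aligner, counting tool, strand. The deposited signal equalled the raw counts over 1 factor per library within a relative difference of 5.23e-10, so tests used the counts; genes under 93 counts in all were absent. Libraries of a group differed beyond sampling noise (105 pairs, chi-square per degree of freedom at least 5.00).

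Genes passing filterByExpr (count 10, total 15) were fitted with edgeR 4.0.16 (R 4.3.3, TMM, quasi-likelihood, 1 mean per group, 31 libraries, 27 residual degrees of freedom). The fit was tried on simulated counts in which genes varied independently, so its behaviour under a component shared by many genes was not tested. P-values are two-sided, adjusted by Benjamini-Hochberg over 10082 genes in each of 7 contrasts, threshold 0.05. They measure the spread between animals; labels name no batch. Levels are CPM after TMM. Relations use log2 CPM (prior count 2) less the group mean, with 100000 within-group permutations. Alternatives were size factors, DESeq2 1.42.0, no filter, only the groups compared, the first component as a covariate, and omitted animals.

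The members and the lists were chosen with earlier results of these data known. Named genes are those past the threshold, the 5 smallest p in each contrast, the most abundant of each class, Hsph1, Dnajb1, Hspa8 and Hspb1, and of related lists the genes past the threshold and the 2 smallest p; others were chosen after their values were seen. Promoters and gene positions are from RefSeq GRCr8, counts from Rnor 6.0.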

Additional observations from a re-analysis of the deposited data

Results flagged for a closer look

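Of 100 gene-by-group sets of the 25 genes checked, 6 had 1 animal far from the rest by a gap test (Dixon) at the 95% level; chance flags about 1 in 20 sets. Dnaja2 stood at 238.9 CPM in room temperature control 1, with the nearest animal at 296.5 CPM. Dnajb9 stood at 11.3 CPM in room temperature control 4 (nearest 24.15 CPM), the animal whose omission brought the cold change in controls past the threshold. Dnajc7 stood high in cold control 16 at 291.6 CPM (nearest 235.8 CPM) and low in cold knockout 28 at 124.1 CPM (nearest 199.7 CPM). Hspa9 stood at 3.474 CPM in the same animal 28 (nearest 1.898 CPM). Hspb3 stood at 205.4 CPM in room temperature control 2 (nearest 149.3 CPM).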

How the results depend on the processing

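The count of chaperone genes called in the averaged cold contrast was 2 with edgeR (3.77%, all genes 5.65%) and 2 with DESeq2 (3.7%, all genes 7.04%). With the first component as a covariate it was 5 (2 higher, 3 lower), 9.43% against 12.6% of all genes. The covariate took all-gene calls from 570 to 1274. Without room temperature controls 1 and 2 the chaperone count was 3 (2 higher, 1 lower), 5.66% against 7.2% of all genes. Without the 7 animals lowest on the component it was 2 (1 higher, 1 lower), 3.77% against 5.28%. Omissions of single animals gave 1 to 3. In knockouts the count was 0 with edgeR (all genes 1.38%) and 3 with DESeq2 (5.56%, all genes 2.91%). It was 3 without room temperature controls 1 and 2 (5.66%, all genes 3.74%) and 5 with the component as covariate (9.43%, all genes 6.68%). Without the 7 animals lowest on the component, an alternative chosen after seeing the data, it was 2 (3.77%, all genes 1.44%). Omissions of single animals gave 0 to 2 in knockouts. In controls the count was 0 with edgeR (all genes 0.853%) and 1 with DESeq2 (1.89%, all genes 2.03%). It was 1 with the covariate (1.89%, all genes 3.76%) and 0 to 1 over omissions. All-gene calls in controls and knockouts were 86 and 139 with edgeR and 220 and 328 with DESeq2. The causes were not tested. The count of genes related to Hsph1 went from 6 to 2 without its farthest 2 animals, the same as room temperature controls 1 and 2. Of the comparisons of named genes with their value in another fit or at the extremes of omitted animals, 274 kept their direction and side of the threshold, 23 came to pass and 3 ceased to; 0 reversed. All 3 losses were of Hspb6 with animals left out: control 2, controls 1 and 2, or the 7 animals lowest on the component. No paired analysis was possible because the labels number every animal separately and groups share no numbers. Depth limits genes of a few CPM, such as Hspa9, Dnajc13 and Dnajc28.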
